A study of Mus musculus with 8 samples.

Results

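The transcripts described here encode albumin and 9 other proteins that the liver releases into plasma. They were chosen by name, with earlier results of these data known, and are *Alb*, *Ttr*, *Rbp4*, *Gc*, *Ahsg*, *Fetub*, *Ambp*, *Apoh*, *Serpina6* and *Serpina3k*, 10 of the 55385 gene identifiers counted in each liver. All 10 were expressed above the minimum set for testing. *Alb* ranked 1 among all genes by mean level in control livers. In *Usp39*-HKO livers *Apoh*, *Fetub* and *Serpina3k* were lower, and *Alb* and the other 6 did not pass the test. Of 15 alternative fits, *Apoh* was called in 15, *Serpina3k* in 14 and *Fetub*, whose groups overlapped, in 8.

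Hepatocytes make most circulating proteins other than antibodies. The nascent chain enters the endoplasmic reticulum, loses its signal peptide, folds, and leaves through the Golgi. Albumin holds most of the oncotic pressure of plasma and carries fatty acids, bilirubin and metal ions. The other 9 carry small molecules or bind enzymes and phospholipids: transthyretin carries thyroxine and holds retinol-binding protein in plasma, the vitamin D-binding protein carries vitamin D metabolites, and corticosteroid-binding globulin carries glucocorticoids.

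Liver RNA came from 4 *Usp39*-HKO and 4 control male littermates on the C57BL/6J background, 5 weeks old and fasted for 16 h, with 1 library per mouse and none pooled. In *Usp39*-HKO mice exon 2 of *Usp39*, a gene for a component of the spliceosome, lies between loxP sites on both alleles (*Usp39* fl/fl) and Cre comes from an Albumin-Cre transgene, so the knockout acts where the albumin promoter does. The labels call the control mice WT, the paper calls them control littermates, and whether they carried floxed alleles or Cre was not given in the sources used here. Control mice are named A468, A472, A473 and A475, and *Usp39*-HKO mice A469, A470, A471 and A474. Values listed by mouse below keep that order.

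Levels are given as FPKM, counted fragments scaled to the exon length of the gene and to the total of the mouse. Fold changes come from edgeR's quasi-likelihood test on the counts, with TMM scaling (a factor per library that sets the bulk of genes to no change) and Benjamini-Hochberg adjustment over 14340 genes tested, and a gene was called at an adjusted p under 0.05. Counts summed to between 8589636 and 10418450 per mouse. The TMM factors were 0.912 to 0.940 in control and 1.01 to 1.19 in *Usp39*-HKO livers, so that a gene at equal FPKM is slightly negative on the log2 scale. With scaling to total counts alone the median log2 fold change of all genes moved from -0.0015 to 0.23, and the calls over all genes moved from 1561 higher and 1664 lower to 3509 higher and 702 lower. For that reason both scales are given where they differ in sign.

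*Usp39* was at 9.35, 10.4, 8.76 and 9.78 FPKM in control and 8.37, 8.63, 8.70 and 8.07 FPKM in *Usp39*-HKO livers. All 4 knockout values were below all 4 control values, with a log2 fold change of -0.41 (SE 0.111, adjusted p = 0.0212 by edgeR). The call was lost without A475 (adjusted p = 0.0547), without A474 (0.0615) and with scaling to total counts (0.241), and since 1 exon is removed the count per gene holds reads from the rest of the transcript. Control library A475 stood apart by pancreas acinar transcripts, with 892 FPKM summed over 14 markers against 3.27 to 6.60 in the other 7 mice. A474 stood apart by the highest sum of cholangiocyte markers, 302 FPKM against 74.0 to 159 in the other *Usp39*-HKO livers and 34.7 to 37.5 in control livers. Most of that sum was *Spp1*, at 263 FPKM in A474 and 59.8 to 136 FPKM in the other *Usp39*-HKO livers. *Epcam*, *Krt19* and *Tspan8* were also highest in A474, at 9.37, 4.72 and 5.14 FPKM. A469 had the highest sum over genes for positive acute phase proteins and their signals, 3920 FPKM against 1493 to 3031 in the other 7 mice.

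Promoter sequences were read for 7 of the 10 genes from RefSeq on GRCm38.p6, as windows of 300 bases that end shortly after the start, in 9 windows because *Rbp4* and *Fetub* have 2 starts each. No entry was matched for *Ttr*, *Serpina6* and *Serpina3k*. The windows of *Alb*, the most abundant transcript, of *Ahsg* and *Fetub*, neighbours with unequal values, and of *Apoh*, which was lower in *Usp39*-HKO livers, are shown 5′ to 3′ on the plus strand. Of the 9 windows 5 lie wholly inside the GENCODE span of their gene, among them the windows shown for *Ahsg* and *Apoh*, since GENCODE starts these genes further upstream. Capitals mark the letters of 5 motifs, searched on either strand. These were the HNF1 half-site GTTAAT, the C/EBP core TTGCNNAA, the forkhead core in its forms TGTTTAC as well as TGTTTGC, the TATA box in its forms TATAAA as well as TATATA, and the CCAAT box spelled by its name. The positions are chr5:90460620-90460919 for *Alb*, chr16:22891765-22892064 for *Ahsg*, chr16:22918132-22918431 for the upstream start of *Fetub* and chr11:108395047-108395346 for *Apoh*.
Alb: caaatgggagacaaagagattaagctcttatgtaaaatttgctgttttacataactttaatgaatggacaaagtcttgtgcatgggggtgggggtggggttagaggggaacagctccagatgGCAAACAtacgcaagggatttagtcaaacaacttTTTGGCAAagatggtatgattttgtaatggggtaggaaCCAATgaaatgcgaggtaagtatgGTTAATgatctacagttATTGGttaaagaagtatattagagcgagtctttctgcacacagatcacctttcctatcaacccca
Ahsg: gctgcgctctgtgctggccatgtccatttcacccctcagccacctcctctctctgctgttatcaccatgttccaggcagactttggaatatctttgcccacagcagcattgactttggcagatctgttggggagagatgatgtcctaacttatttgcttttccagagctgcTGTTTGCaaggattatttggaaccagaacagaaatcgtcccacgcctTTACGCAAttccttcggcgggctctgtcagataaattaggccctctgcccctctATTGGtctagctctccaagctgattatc
Fetub: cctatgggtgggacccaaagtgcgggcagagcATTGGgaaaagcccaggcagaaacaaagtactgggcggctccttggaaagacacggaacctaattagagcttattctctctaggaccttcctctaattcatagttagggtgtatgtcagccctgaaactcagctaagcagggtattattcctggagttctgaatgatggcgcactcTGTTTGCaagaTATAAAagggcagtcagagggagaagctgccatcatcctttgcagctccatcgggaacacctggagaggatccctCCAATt
Apoh: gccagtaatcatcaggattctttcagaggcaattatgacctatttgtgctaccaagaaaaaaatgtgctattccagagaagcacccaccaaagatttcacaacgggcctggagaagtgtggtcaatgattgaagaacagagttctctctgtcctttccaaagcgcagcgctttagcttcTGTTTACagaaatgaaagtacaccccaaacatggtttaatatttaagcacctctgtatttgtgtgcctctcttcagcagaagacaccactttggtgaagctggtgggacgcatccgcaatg

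A forkhead core, the letters that the FOXA factors of liver read, was found in 6 of the 7 promoters, all but that of *Gc*, and in 8.48% of the 32851 promoters in the RefSeq table. The C/EBP core was found in 3 (*Alb*, *Rbp4* and *Ahsg*) against 10.8% of all promoters, and the HNF1 half-site in 2 (*Alb* and *Gc*) against 7.1%. The CCAAT box stood in 6 against 37.4%, and the TATA box in 2 (*Rbp4* and *Fetub*) against 17.1%. CAAAGTCC, a core letter string of HNF4 sites, was in 0 of 7 against 1.42%. For *Rbp4* and *Fetub* a match in either window counted, whereas the percentages over all promoters count single windows. *Ahsg*, which was not called, and *Apoh*, which was lower, both held a forkhead core, beginning at position -79 from the RefSeq start in *Ahsg* and -71 in *Apoh*.

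Albumin itself did not pass the test in either direction. *Alb* (ENSMUSG00000029368, chromosome 5, 90460897 to 90476602, plus strand, 15 exons, GENCODE vM21 on GRCm38) was at 8119, 8355, 8179 and 7170.5 FPKM in control and 9767, 7281, 8982 and 7661 FPKM in *Usp39*-HKO livers. The control livers lay close together except for A475, the knockout livers lay on both sides of them, and the groups overlapped. Means were 7956 ± 533 and 8423 ± 1155 FPKM (SD, n = 4 each). The log2 fold change was -0.14 with a 95% interval of -0.55 to 0.27 (adjusted p = 0.626 by edgeR), and 0.082 when scaled to total counts, so its sign depends on the scaling. After TMM scaling the knockout mean was 0.905 times the control mean. In a bulk sample fewer hepatocytes and less RNA per hepatocyte cannot be told apart, which holds for every level given here. *Alb* took 1.86% ± 0.125 of all counts in control and 1.97% ± 0.271 in *Usp39*-HKO livers. The next genes by mean level in control livers were 1 identifier that the table pairs with no symbol (ENSMUSG00000076258, 6359 FPKM) and the mitochondrial *COX1*, *CYTB* and *ND1*, at 4561 to 3127 FPKM. That identifier ran from 962 to 15556 FPKM over the control livers, and in A468 it stood above *Alb*.

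**Figure D1:**
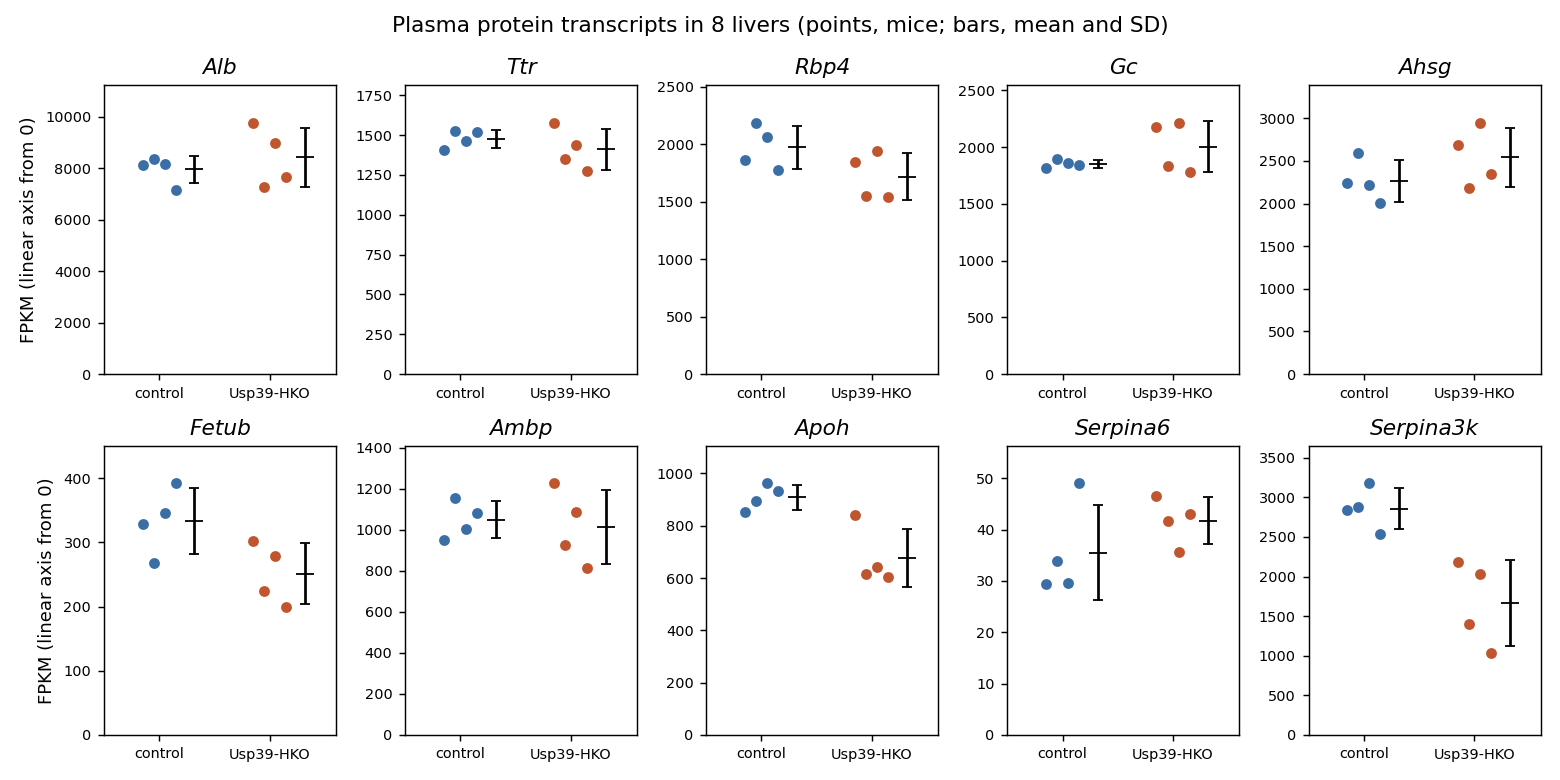
FPKM (linear axes from 0) of the 10 plasma protein genes in 4 control (blue) and 4 Usp39-HKO (orange) livers, each point 1 mouse in the order given in the text, with the mean and SD as a black bar. The groups are apart for Apoh and Serpina3k, where all 4 knockout livers lie below all 4 control livers, and overlap for the other 8 genes.

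Transthyretin and retinol-binding protein circulate as a complex. *Ttr* (ENSMUSG00000061808, chromosome 18, 20665280 to 20674321, plus strand, 4 exons) was at 1403, 1525, 1461 and 1518 FPKM in control and 1578, 1349, 1440.0 and 1273 FPKM in *Usp39*-HKO livers. The lowest value was in A474 and the highest in A469, both knockout mice, so the groups overlapped. The log2 fold change was -0.29 (SE 0.139, adjusted p = 0.156 by edgeR). *Rbp4* (ENSMUSG00000024990, chromosome 19, 38116629 to 38125281, minus strand, 6 exons), which carries retinol out of the liver, was at 1864, 2189, 2061 and 1780.0 FPKM in control and 1849, 1547, 1944 and 1539.9 FPKM in *Usp39*-HKO livers. A470 and A474 were below every control liver, and A469 and A471 lay within the control range, although after TMM scaling all 4 knockout values were below all 4 control values. *Rbp4* had a log2 fold change of -0.43 (SE 0.157, 95% interval -0.77 to -0.083, adjusted p = 0.0724 by edgeR) and missed the threshold. It passed with DESeq2 (adjusted p = 0.0178) and without A469 (0.0480 by edgeR).

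Per mouse the *Rbp4* to *Ttr* ratio, which no scaling can change, was 1.33, 1.44, 1.41 and 1.17 in control and 1.17, 1.147, 1.35 and 1.21 in *Usp39*-HKO livers. The ratios overlapped between genotypes. This ratio and the other 3 ratios given below were chosen after the values had been seen. An exact two-sided permutation test of the log2 ratio over 70 assignments of the mice gave p = 0.171 for this pair (0.229 adjusted over the 4 pairs).

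The vitamin D-binding protein gene lies near *Alb* and belongs to its family. *Gc* (ENSMUSG00000035540, chromosome 5, 89417522 to 89457898, minus strand, 13 exons) was at 1813, 1898, 1861 and 1839 FPKM in control and 2181, 1838, 2216 and 1782 FPKM in *Usp39*-HKO livers. The control livers differed by less than those of any other member, with a coefficient of variation of 1.94%, and the knockout livers fell into a higher pair (A469 and A471) and a lower pair (A470 and A474). The log2 fold change was -0.11 (95% interval -0.44 to 0.22, adjusted p = 0.638 by edgeR), and 0.11 when scaled to total counts. The *Gc* to *Alb* ratio was 0.223, 0.227, 0.227 and 0.257 in control and 0.223, 0.252, 0.247 and 0.233 in *Usp39*-HKO livers, with means of 0.234 and 0.239. The ratio stayed between 0.223 and 0.257 in all 8 mice (p = 0.657 by the exact permutation test, also after adjustment over the 4 pairs).

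The fetuins, cystatin-domain glycoproteins, gave unequal values. *Ahsg* (ENSMUSG00000022868, chromosome 16, 22891277 to 22899449, plus strand, 7 exons), which encodes fetuin-A, an inhibitor of calcium phosphate precipitation, was at 2238, 2597, 2213 and 2006 FPKM in control and 2682, 2185, 2949 and 2349 FPKM in *Usp39*-HKO livers. The groups overlapped, and the log2 fold change was -0.061 (95% interval -0.43 to 0.31, adjusted p = 0.835 by edgeR) with TMM scaling and 0.17 when scaled to total counts. *Fetub* (ENSMUSG00000022871, chromosome 16, 22918334 to 22939778, plus strand, 9 exons), which encodes fetuin-B, a protease inhibitor needed for fertilization, was at 329, 267, 346 and 392 FPKM in control and 302, 224, 279 and 199 FPKM in *Usp39*-HKO livers. A470 and A474 were below all controls, while control A472 lay below A469 and A471, so the groups overlapped. *Fetub* was lower with a log2 fold change of -0.63 (SE 0.183, adjusted p = 0.0299 by edgeR). That call was lost without any 1 of A468, A473, A475, A470 or A474 (adjusted p between 0.0632 and 0.0907) and with scaling to total counts (0.0689), where the log2 fold change was -0.41.

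No coding gene lies in the 18.88 kb between *Ahsg* and *Fetub*. The *Fetub* to *Ahsg* ratio was 0.147, 0.103, 0.156 and 0.195 in control and 0.113, 0.103, 0.0947 and 0.0847 in *Usp39*-HKO livers. A468, A473 and A475 were above every knockout liver, and A472 was between the knockout livers. The exact permutation test gave p = 0.0571 (0.114 adjusted over the 4 pairs). With 1 mouse left out, the exact permutation test gave p = 0.0286 without A472 and p between 0.0571 and 0.114 without any other mouse. Leaving out A472, the control between the knockout livers, sets the groups apart. The p without A472 is the smallest that 35 assignments can give, and no conclusion is drawn from it. Of the exon bases of *Ahsg*, 2.82% lie opposite another gene, Gm30505, and the strand setting of the counting was not given in the sources used here.

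*Ambp* (ENSMUSG00000028356, chromosome 4, 63143275 to 63154799, minus strand, 10 exons) encodes a precursor that is cut into the lipocalin alpha-1-microglobulin and the protease inhibitor bikunin. It was at 952, 1157, 1002 and 1083 FPKM in control and 1226, 925, 1089 and 814 FPKM in *Usp39*-HKO livers. Knockout livers held both the highest and the lowest value, and the log2 fold change was -0.27 (SE 0.172, adjusted p = 0.291 by edgeR). *Apoh* (ENSMUSG00000000049, chromosome 11, 108343354 to 108414396, plus strand, 8 exons) encodes beta-2-glycoprotein I, which binds negatively charged phospholipids. It was at 852, 893, 962 and 931 FPKM in control and 843, 616, 642 and 605 FPKM in *Usp39*-HKO livers. All 4 knockout livers were below all 4 controls, A469 by a small margin and the other 3 by a wider one. *Apoh* was lower with a log2 fold change of -0.65 (SE 0.158, 95% interval -1.0 to -0.30, adjusted p = 0.0138 by edgeR), and this call was kept in all 15 alternatives run, with log2 fold changes of -0.79 to -0.43. Of its exon bases, 1.88% lie opposite *Prkca*.

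The serpins of clade A include a hormone carrier and protease inhibitors. *Serpina3k* (ENSMUSG00000058207, chromosome 12, 104338486 to 104346144, plus strand, 5 exons) encodes a secreted serpin known as kallikrein-binding protein. It was at 2845, 2881, 3176 and 2531 FPKM in control and 2189, 1404, 2032 and 1030.1 FPKM in *Usp39*-HKO livers. All 4 knockout livers were below all 4 controls, and A474 was the lowest. *Serpina3k* showed the largest difference of the 10 genes, with a log2 fold change of -0.99 (SE 0.253, 95% interval -1.55 to -0.44, adjusted p = 0.0170 by edgeR), or 0.582 times the control mean on the FPKM scale. It was called in 14 of 15 alternatives and missed the threshold without A473 (adjusted p = 0.0523, log2 fold change -0.93). A share of 4.85% of its 100-base stretches occurs in *Serpina3m* as well, and 2.92% of its exon bases overlap that gene, so a small part of its reads could have been split between them.

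*Serpina6* (ENSMUSG00000060807, chromosome 12, 103646630 to 103657212, minus strand, 5 exons) encodes corticosteroid-binding globulin. It was at 29.4, 34.0, 29.6 and 49.0 FPKM in control and 46.5, 41.7, 35.6 and 43.1 FPKM in *Usp39*-HKO livers. Control A475 was the highest of the 8 and the groups overlapped, with a log2 fold change of 0.0039 (95% interval -0.35 to 0.36, adjusted p = 0.989 by edgeR). The *Serpina3k* to *Serpina6* ratio was 96.8, 84.8, 107 and 51.7 in control and 47.1, 33.7, 57.0 and 23.9 in *Usp39*-HKO livers. The groups overlapped, A475 being below A471, and without either of these mice all knockout ratios were below all control ratios. The exact permutation test gave p = 0.0571 (0.114 adjusted over the 4 pairs), and p between 0.0571 and 0.114 when 1 mouse was left out.

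Of the 10 genes, 0 were higher and 3 were lower at an adjusted p under 0.05, against 10.9% of all genes called higher and 11.6% called lower. At an unadjusted p under 0.05 edgeR marked 0 higher and 4 lower, the fourth being *Rbp4*, against 17.4% and 18.0% of all genes. DESeq2 called 0 higher and 4 lower at an adjusted p under 0.05, against 11.8% and 12.3%. Leaving out 1 mouse gave between 1 and 4 lower, 1 without A473, 4 without A469, and 2 without any 1 of A468, A475, A470 or A474. With the cutoff of the study's methods (unadjusted p under 0.05 and a log2 fold change beyond 0.5) edgeR marked 3 lower and 0 higher, against 9.62% and 12.1% of all genes. FPKM of the genotypes did not overlap for 2 genes, with *Usp39*-HKO below, against 4.81% of all genes, and after TMM scaling for 3, against 12.9%. The median log2 fold change of the 10 was -0.28 with 9 of 10 negative, beside -0.0015 over all genes tested with 7188 of 14340 negative. On the log2(FPKM + 1) scale the median difference was -0.066 for the 10 and 0.17 for all genes.

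**Figure D2:**
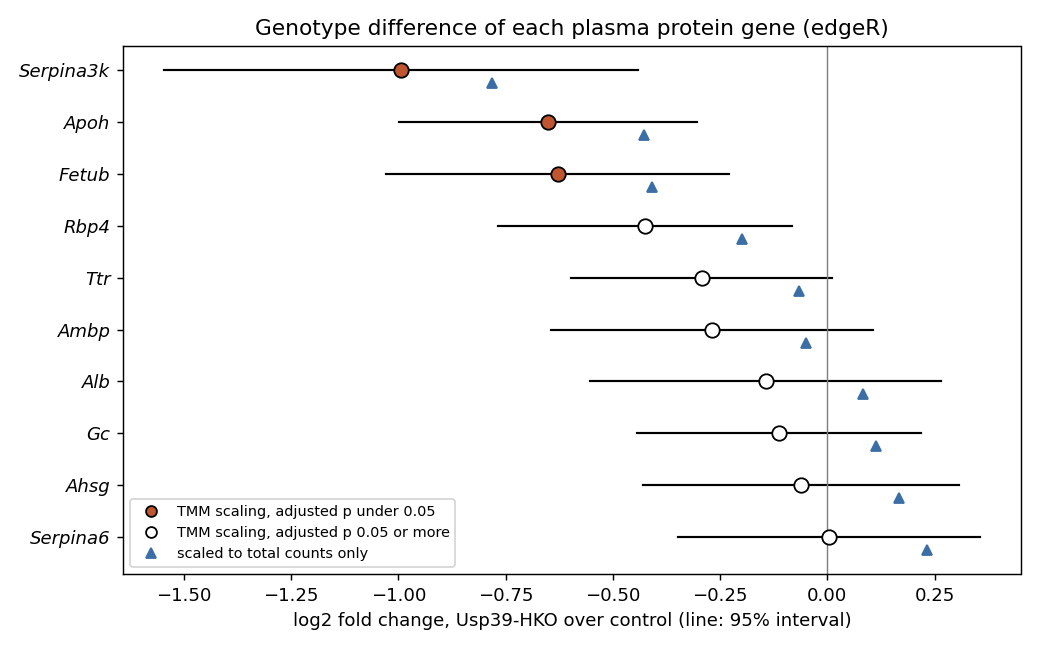
Difference between the genotypes of each gene by edgeR on the log2 scale (circles, filled at an adjusted p under 0.05; lines, 95% intervals), with the value under scaling to total counts alone as triangles. Serpina3k, Apoh and Fetub are filled, from -0.99 to -0.63, and the triangles lie to the right of every circle, above 0 for Alb, Gc, Ahsg and Serpina6.

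By level per length, control livers ran in the order *Alb*, *Serpina3k*, *Ahsg*, *Rbp4*, *Gc*, *Ttr*, *Ambp*, *Apoh*, *Fetub* and *Serpina6*, a span of 224-fold in mean FPKM. Ranges over mice overlapped between *Serpina3k* and *Ahsg*, *Ahsg* and *Rbp4*, *Rbp4* and *Gc*, and *Ambp* and *Apoh*, and the other neighbours in that order were apart. *Serpina3k* ranked 8 among all genes in control livers, *Ahsg* 14, *Rbp4* 17, *Gc* 22, *Ttr* 28, *Ambp* 43, *Apoh* 49, *Fetub* 139 and *Serpina6* 1297. In *Usp39*-HKO livers *Serpina3k* was in position 5 by mean FPKM, behind *Alb*, *Ahsg*, *Gc* and *Rbp4*, but it overlapped *Rbp4* and *Ttr*, being below *Rbp4* in 2 of 4 mice and above *Ttr* in 3 of 4. The order of the last 5, from *Ttr* to *Serpina6*, was the same in both genotypes.

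The 10 genes together took 4.07%, 4.31%, 4.22% and 3.79% of all counts in control and 4.54%, 3.46%, 4.33% and 3.47% in *Usp39*-HKO livers. The groups overlapped, and the means were 4.09% ± 0.229 and 3.95% ± 0.566 (SD, n = 4 each). Knockout livers fell into a higher pair (A469 and A471) and a lower pair (A470 and A474), on either side of the controls. The difference of -0.147 percentage points turned to 0.014 without A474 and 0.016 without A470. *Serpina3k* alone went from 0.588% to 0.342% of all counts, and *Alb* from 1.86% to 1.97%.

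The spread between mice was larger in knockout than in control livers for 9 of the 10 genes, a difference that was not tested. The coefficient of variation of FPKM was 1.94% (*Gc*) to 26.1% (*Serpina6*) in control and 9.30% (*Ttr*) to 32.5% (*Serpina3k*) in *Usp39*-HKO livers. *Serpina6* went the other way, with 26.1% in control and 10.9% in *Usp39*-HKO livers. A474 held the lowest FPKM of the 8 mice for 7 of 10 genes (*Ttr*, *Rbp4*, *Gc*, *Fetub*, *Ambp*, *Apoh* and *Serpina3k*) and, after TMM scaling, for 9 of 10. The TMM factor of A474, 1.19, was the largest of the 8, so that scaling lowers A474 most for every gene. The same counts of spread and of lowest values over all genes are not given here. They are therefore not read as a trait of these 10 genes. A469 held the highest FPKM for *Alb*, *Ttr* and *Ambp*. Without A474 *Apoh* and *Serpina3k* were still called, with log2 fold changes of -0.56 (adjusted p = 0.0314 by edgeR) and -0.79 (0.0179).

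**Figure D3:**
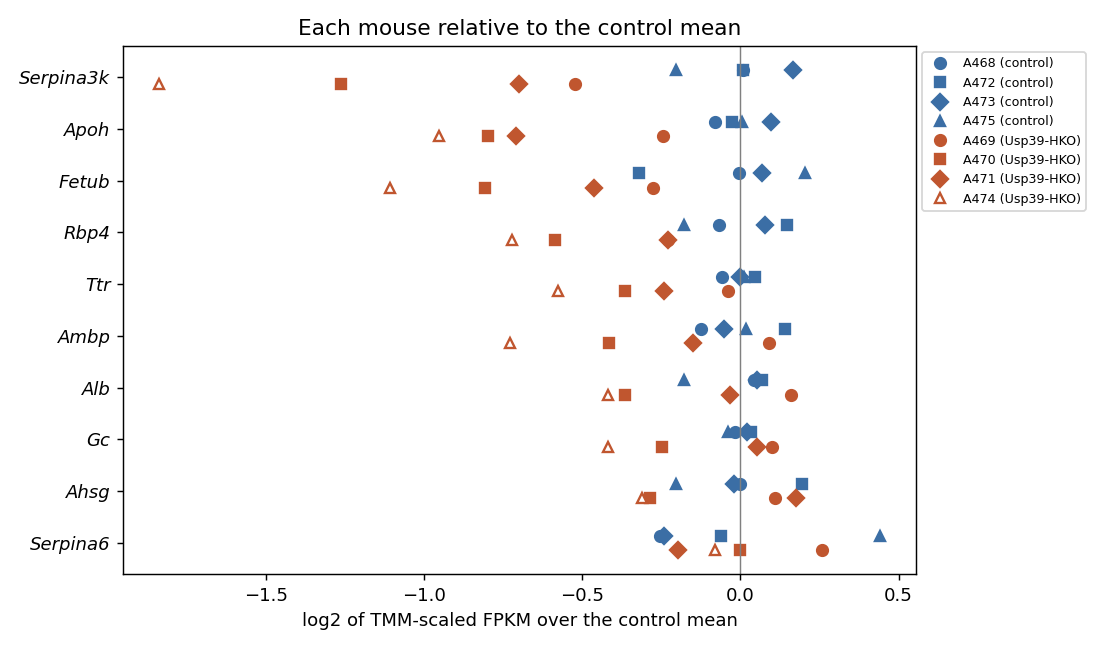
Log2 of the TMM-scaled FPKM of each mouse over the control mean, for the 10 genes from the lowest to the highest fold change (blue, control; orange, Usp39-HKO; open triangle, A474). A474 is the leftmost point for every gene except Serpina6, and for Serpina6 the highest point is control A475.

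Likeness to *Alb* was measured as the root mean square difference of centred log2(FPKM + 1) profiles over the 8 mice. The 5 genes nearest to *Alb* outside the set were *Eef1a1* (0.0699), *Grn* (0.0700), *Tmem59* (0.0755), *Cyp2a12* (0.0770) and *Cpq* (0.0778). None of these 5 was called, with adjusted p between 0.257 and 0.695 by edgeR. *Gc* was at 0.0765, behind 3 of the 4123 genes compared, and *Ahsg* at 0.0961. *Serpina3k* was farthest of the set at 0.507, and the 8 values share their libraries, so these distances are a description.

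**Figure D4:**
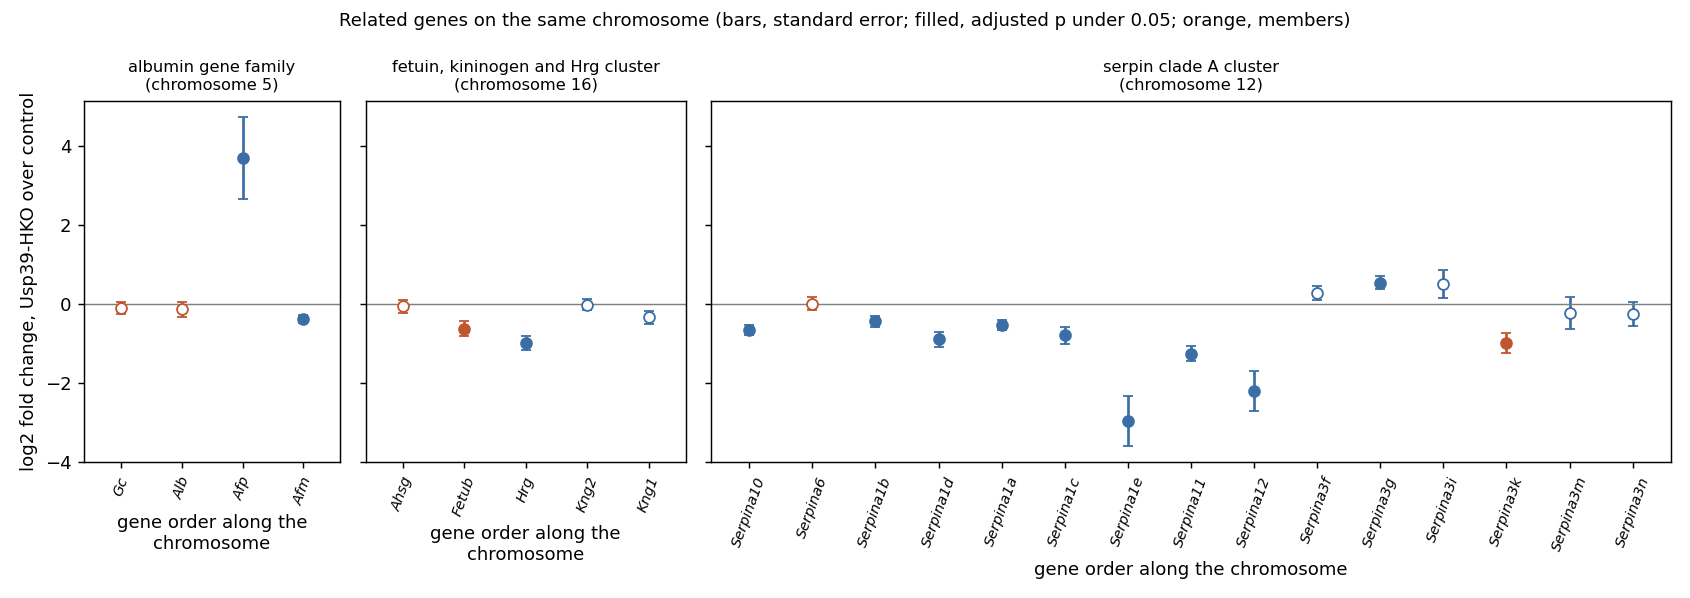
Genotype difference on the log2 scale (points; bars, SE) for the genes tested in 3 gene clusters, in order along chromosomes 5, 16 and 12, with the genes described here in orange and the others in blue (filled, adjusted p under 0.05). Alb and Gc lie near 0 beside Afp at 3.68, Ahsg lies near 0 beside Fetub at -0.63 and Hrg at -0.99, and most serpin genes lie below 0.

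The close relatives of these genes on the same chromosomes did not move as one. Of the albumin family, *Afp*, the fetal albumin, was at 0.906, 0.779, 1.07 and 0.826 FPKM in control and 1.41, 3.0, 2.65 and 50.9 FPKM in *Usp39*-HKO livers. All knockout values were above the controls and A474 was far above the rest. Its log2 fold change was 3.68 (SE 1.04, adjusted p = 0.0263 by edgeR) and 1.19 without A474 (adjusted p = 0.0147), while the call was lost without any 1 control mouse (adjusted p up to 0.0743) and with limma, and DESeq2 gave no adjusted p for it. *Afm*, which encodes afamin, a vitamin E carrier, was at 72.6 ± 4.66 and 65.8 ± 6.10 FPKM, with overlapping groups and a log2 fold change of -0.38 (adjusted p = 0.0239 by edgeR, 0.341 when scaled to total counts). The *Afm* call was also lost without any 1 of A473, A475, A471 or A474 (adjusted p up to 0.0787). Between *Gc* and *Alb* lie 1003 kb and 5 coding genes.

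Beside the fetuin genes, *Hrg*, which encodes histidine-rich glycoprotein, was lower, from 521 ± 74.6 to 306 ± 52.0 FPKM with no overlap (log2 fold change -0.99, SE 0.178, adjusted p = 0.00348 by edgeR). The kininogen genes were not called: *Kng1* had a log2 fold change of -0.35 (adjusted p = 0.129 by edgeR) and *Kng2* one of -0.028 (0.910). When scaled to total counts *Kng2* was at 0.20. Without A469 *Kng1* was called (adjusted p = 0.0315 by edgeR).

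Of the 14 tested clade A serpins outside the set, 8 were lower, 2 were higher and 4 were not called, with a median log2 fold change of -0.49. The lower count was 5 without A473 and 10 without A469, and 6 when scaled to total counts. The higher count was 1 without any 1 of A468, A473, A475, A470 or A474. The lower genes include *Serpina1a*, *Serpina1b*, *Serpina1c*, *Serpina1d* and *Serpina1e*. These are near-identical alpha-1-antitrypsin copies whose reads the counting could have split, so their calls may not be separate. *Serpina1e* went from 1596 ± 331 to 238 ± 258 FPKM (log2 fold change -2.96, SE 0.631, adjusted p = 0.00766 by edgeR). *Serpina11* had a log2 fold change of -1.26 (adjusted p = 0.00134 by edgeR), and *Serpina12*, which encodes vaspin and was at or below 1.12 FPKM in every liver, one of -2.20 (0.0101). *Serpina7*, an X-linked gene for thyroxine-binding globulin, which carries the same hormone as transthyretin, moved the other way. It was at 1.47, 1.896, 1.14 and 2.08 FPKM in control and 17.1, 13.1, 19.0 and 15.3 FPKM in *Usp39*-HKO livers, with all knockout values far above all controls (log2 fold change 3.05, SE 0.199, adjusted p = 2.92e-05 by edgeR). Its call was kept in all 15 alternatives. The nearest copies of *Serpina3k*, *Serpina3m* and *Serpina3n*, had log2 fold changes of -0.23 (adjusted p = 0.736 by edgeR) and -0.25 (0.594). Without A469 both were called lower, at -0.85 (adjusted p = 0.0397 by edgeR) and -0.67 (0.0287).

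Of 31 other abundant plasma proteins of hepatocytes, 15 were lower, 0 were higher and 16 were not called, with a median log2 fold change of -0.52. That count stood at 9 of 31 when scaled to total counts and 8 of 31 with limma, where 2 of the 10 genes were lower, and the difference between the sets was not tested. The lower count was 7 without A473, 8 without A475, 9 without A468, 20 without A469 and 10 or 11 without any 1 of the others. With DESeq2 it was 21 of 31. *Mug1*, a protease-binding murinoglobulin, was lower from 1407 ± 179 to 453 ± 176 FPKM (log2 fold change -1.86, adjusted p = 0.00128 by edgeR). *Itih1* and *Itih3*, heavy chains of the inter-alpha-inhibitors that bikunin from *Ambp* belongs to, had log2 fold changes of -1.38 (adjusted p = 0.00173 by edgeR) and -0.85 (0.0315), and *Plg*, plasminogen, one of -0.98 (0.00401). The *Itih3* call was lost without any 1 of A468, A473, A475, A470, A471 or A474 (adjusted p up to 0.0926). Of 7 other plasma lipocalins, 1 was lower, *C8g* of the complement membrane attack complex (log2 fold change -0.83, adjusted p = 0.00514 by edgeR), and 6 were not called. Without A469 the lower count of the lipocalins was 4 of 7, and their median log2 fold change went from 0.19 to -0.87.

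Genes that handle the ligands of these proteins were counted next. Of 12 tested genes for vitamin A and vitamin D handling, 2 were higher and 3 lower, but the split turned to 4 higher and 1 lower when scaled to total counts and to 3 and 1 with limma. The higher count was 1 without any 1 mouse other than A472 or A469. *Cyp27a1*, a sterol 27-hydroxylase that also acts on vitamin D, went from 190.3 ± 11.6 to 91.3 ± 21.7 FPKM (log2 fold change -1.28, adjusted p = 0.00120 by edgeR). *Lrat*, which esterifies retinol, had a log2 fold change of 0.60 (adjusted p = 0.0253 by edgeR), and *Dhrs3*, a retinal reductase, one of -0.52 (0.00575, and 0.0727 when scaled to total counts). Of 14 genes for thyroid hormone and glucocorticoid handling, 8 were lower and 0 higher, with 3 lower without any 1 of A468, A473 or A475 and when scaled to total counts, and 9 lower without A469. The lower count was also 4 without A474, 5 without A470 or A471 and 2 with limma. *Dio1*, a deiodinase of thyroxine, had a log2 fold change of -1.35 (adjusted p = 0.0457 by edgeR), *Srd5a1*, a steroid 5-alpha-reductase, one of -1.57 (0.0212), *Hsd11b1*, which regenerates active glucocorticoid, one of -0.91 (0.0468) and *Tsc22d3*, a glucocorticoid-induced gene, one of -1.02 (0.00126). The *Lrat* call was lost without any 1 of A468, A473, A475, A470, A471 or A474 (adjusted p up to 0.0790) and the *Dio1* call without any 1 of the 4 controls, A469 or A470 (up to 0.103). The *Srd5a1* call was lost without A468 or A474 (up to 0.0550) and the *Hsd11b1* call without any 1 mouse but A469 (up to 0.106).

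Genes for uptake, transcription and secretion of plasma proteins were read from the same fit. Of 8 genes for albumin recycling and plasma protein uptake, 4 were lower and 0 higher (*Asgr1*, *Lrp1*, *Asgr2* and *Stab2*, log2 fold changes -0.51 to -0.37). The lower count was 0 without any 1 of A468, A473, A475, A470, A471 or A474 or with scaling to total counts. It was 2 without A472 and 5 without A469. *Fcgrt*, the receptor that returns albumin from endosomes, had a log2 fold change of -0.31 (adjusted p = 0.129 by edgeR). Of 27 liver transcription factors that act on plasma protein promoters, 9 were lower and 2 higher, and when scaled to total counts 2 were lower and 3 higher. The lower count was 3 without A474, 4 without any 1 of A468, A473 or A471, 5 without A475 and 6 or 7 without any 1 of the others, and the higher count was 1 or 2. *Cebpa*, a C/EBP factor, went from 135 ± 13.1 to 98.8 ± 14.3 FPKM with no overlap (log2 fold change -0.67, adjusted p = 0.00747 by edgeR), and *Prox1*, a hepatic homeobox factor, had a log2 fold change of -0.64 (0.00414). *Onecut1*, or HNF6, was higher with one of 1.22 (0.0108), and *Dbp*, a clock output gene, with one of 1.99 (0.0459, lost without any 1 of the 4 controls, A469 or A474, up to 0.112). Of the factors whose letters were searched for above, *Foxa3* was lower (-0.46, adjusted p = 0.0233 by edgeR, and 0.252 when scaled to total counts), and *Foxa1* (0.18), *Foxa2* (-0.18) and *Hnf4a* (-0.23) were not called. *Foxa1* was called higher when scaled to total counts (0.42, adjusted p = 0.0350 by edgeR), where *Foxa2* was at 0.047 and *Hnf4a* at 0.0075. The *Foxa3* call was also lost without any 1 of A468, A469, A471 or A474 (adjusted p up to 0.0583).

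Of 52 genes for endoplasmic reticulum entry, folding and export, 14 were lower and 1 higher, but the split turned to 4 lower and 10 higher when scaled to total counts and to 5 and 7 with limma. The lower count was 9 without A473 or A475 and 10 to 12 without any 1 of the others. The chaperone *Calr* (log2 fold change -0.86, adjusted p = 0.000758 by edgeR), the disulfide enzymes *Pdia4* (-0.85, 0.00121) and *Ero1lb* (-0.81, 0.00122) and the cargo receptor *Lman2* (-0.60, 0.00433) were lower in all 15 alternatives. Of 15 genes for positive acute phase proteins and their signals, which rise in inflammation, 4 were lower, 0 higher and 11 not called, with 9 lower without A469 and with 4 lower and 2 higher when scaled to total counts. *Crp*, C-reactive protein, had a log2 fold change of -1.17 (adjusted p = 0.00291 by edgeR), *Il6ra*, the interleukin-6 receptor, one of -1.04 (0.00499), and *Saa4*, a serum amyloid A protein, one of -0.78 (0.0103). *Lbp*, which binds lipopolysaccharide, had one of -0.89 (0.0223) and was not called without any 1 of A473, A475, A470, A471 or A474 (up to 0.0632).

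**Figure D5:**
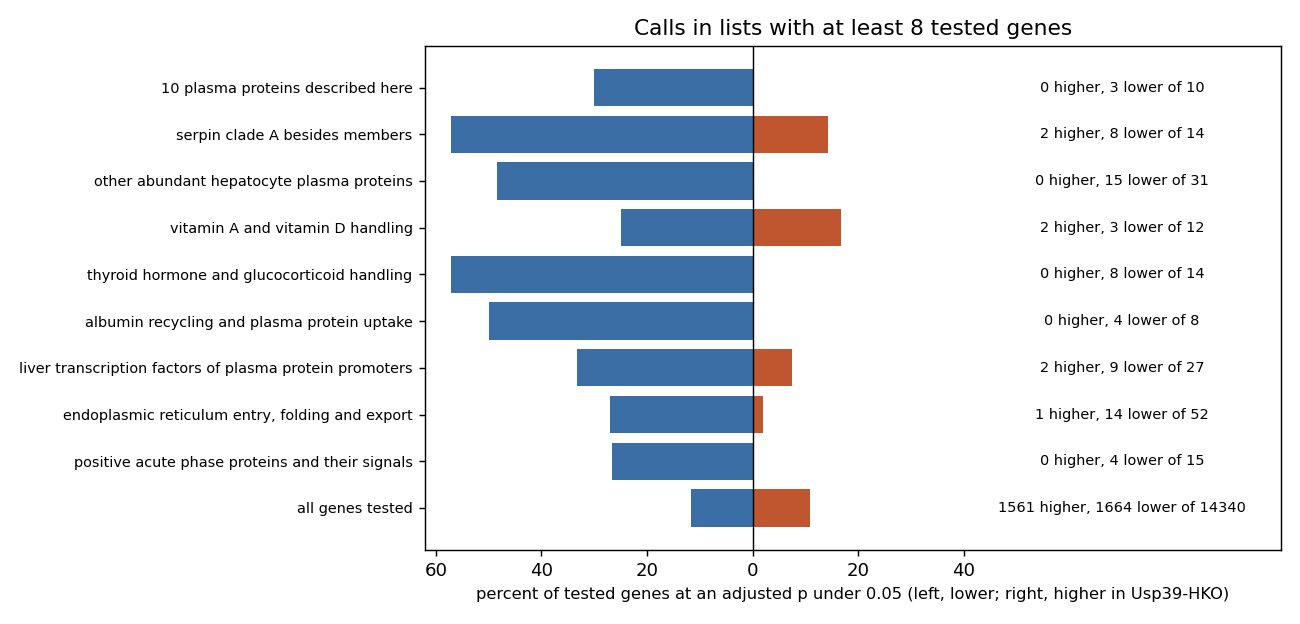
Share of tested genes called at an adjusted p under 0.05 in each list with at least 8 tested genes, the cell type marker lists left out. Lower in Usp39-HKO is to the left and higher to the right, with the counts printed at the right. The 10 genes described here have 3 lower and 0 higher, all genes tested have 11.6% lower and 10.9% higher, and the other abundant plasma proteins have 15 of 31 lower.

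Cell type markers moved with genotype as well, and their part in the values above was not tested. These lists share genes with those above, so the counts are not separate. *Lrat* is also in the stellate list, *Stab2* in the endothelial list, and *Asgr1* and *Asgr2* in the hepatocyte list. Of 18 hepatocyte markers that are not secreted, 11 were lower and 0 higher, among them *Hal*, *Slco1b2*, *Slc10a1* and *Hpd* (log2 fold changes -1.06 to -0.77). Their summed FPKM was 11494 to 13053 in control and 9122 to 11990 in *Usp39*-HKO livers. The lower count was 4 without any 1 of A468, A473 or A475, 5 without A471, 6 without A474 and 7 without A470. It was 12 without A472, without A469 and with DESeq2, and 5 when scaled to total counts. Of 6 tested cholangiocyte markers 5 were higher and 0 lower (*Spp1* from 24.2 ± 0.889 to 147 ± 84.8 FPKM, also *Tspan8*, *Epcam* and *Krt19*), and *Krt7* and *Cftr* were below the minimum for testing. The higher count was 3 without any 1 of A473, A475 or A474 and with limma, and the *Tspan8* call, with overlapping groups, was lost there (adjusted p up to 0.0775 by edgeR). Of 10 stellate and fibroblast markers 8 were higher and 0 lower, from 73.2 to 84.0 FPKM summed in control to 119 to 259 FPKM in *Usp39*-HKO livers (*Lum*, *Col1a1*, *Col3a1* and *Col1a2* by 1.02 to 2.42 on the log2 scale). Of 10 Kupffer cell and macrophage markers 8 were higher (*Marco*, *Ccr2*, *Cd68* and *Lyz2* by 0.76 to 1.25), from 350.0 to 468.9 FPKM summed to 634 to 984 FPKM. The higher count was 5 without A473, where *Cd68* was not called (adjusted p = 0.0589 by edgeR), and 10 when scaled to total counts.

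The other marker lists moved less or the other way. Of 8 endothelial markers 2 were lower, *Lyve1* and *Stab2*, with a median log2 fold change of 0.022. When scaled to total counts 3 were higher and 1 lower, and *Stab2* was at -0.13 (adjusted p = 0.458 by edgeR). The *Stab2* call was lost without any 1 mouse but A469 (up to 0.120) and the *Lyve1* call without A473 (0.0537). Of 8 lymphocyte and neutrophil markers 0 were called, the largest values being 0.67 for *Cd3g* (adjusted p = 0.234 by edgeR) and -0.48 for *Cd79a* (0.335). All 5 tested erythroid markers were lower (*Hbb-bt*, *Alas2*, *Hba-a2* and *Hba-a1* with log2 fold changes of -1.76 to -1.38), from 369 to 773 FPKM summed to 155 to 365 FPKM. The 1 tested pancreas acinar marker, *Cela1*, was not called (log2 fold change -2.73, adjusted p = 0.0530 by edgeR, and -0.29 without A475), but was called without any 1 of A468, A472 or A473. No marker of a cell type was at 0 in all 8 mice.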

How the data were processed

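Bulk liver RNA of 8 mice was sequenced as paired-end libraries. Per the labels and the methods, the authors trimmed the reads (Trim Galore 0.6.1), aligned them to mm10 (HISAT2) and assigned them to genes (featureCounts). Picard is also listed among the tools, and its effect on the counts of abundant genes was not tested. The annotation release, strand setting and treatment of reads matching several genes were not given in the sources used here. The authors deposited raw counts per gene and mouse, and FPKM, which the counts, gene lengths and library totals gave back when recomputed. Deposited columns of the authors' own comparison (fold changes and p-values) were not used.

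The 314 entries that repeat an identifier were read once. The test covered the 14340 genes that reached 0.5 FPKM in 4 or more mice, run with edgeR 4.0.16 in R 4.3.3, genotype as the only term. P-values are two-sided. edgeR estimated a common biological coefficient of variation of 0.179, and each SE was derived from the F statistic. DESeq2 1.42.0, limma 3.58.1 on log2(FPKM + 1), other scalings, other filters and leaving out each mouse were alternatives. The fits were tested on simulated data. Chi-square tests between mice of 1 genotype gave 7.02 to 36.4 per degree of freedom, so no library was a copy of another. Intervals cover the spread between these mice only. The labels name no batch.

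The members and lists were chosen with earlier results of these data known. Named were the 10 members, *Usp39*, the 5 profiles nearest to *Alb* among genes with a mean FPKM of at least 10, the 5 highest genes of control livers and up to 4 called genes per list with the largest change (if none was called, the 2 largest), apart from 1 gene that is not reported here. *Kng1*, *Kng2*, *Serpina3m*, *Serpina3n*, *Fcgrt*, *Hnf4a* and the *Foxa* genes were named after their values were seen. Positions and exon numbers come from GENCODE vM21, whose merged exon length equalled the deposited length for all 10 genes.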

Additional observations from a re-analysis of the deposited data

Results flagged for a closer look

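The highest *Apoh* value among the *Usp39*-HKO livers, 843 FPKM in mouse A469, lay apart from the other 3 (605 to 642 FPKM). Its gap to the nearest was 0.845 of the range of the group, above Dixon's 95% critical value for 4 samples. It was the 1 value so marked in 20 groups of 4 looked at, and chance marks about 1 group in 20. Without A469 the log2 fold change of *Apoh* was -0.79 (adjusted p = 0.00131 by edgeR).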

How the results depend on the processing

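*Apoh* was called lower in all 15 alternatives, *Serpina3k* in 14 and *Fetub* in 8, and no member was called higher in any. The count of lower members was 1 to 4 when 1 mouse was left out. Scaling to total counts gave log2 fold changes of 0.082 for *Alb*, 0.11 for *Gc* and 0.17 for *Ahsg*, and limma on log2(FPKM + 1) gave 0.075, 0.11 and 0.16. These turned the signs of values that were not called. *Ahsg* was at 0.014 among genes with a mean FPKM of at least 5 and at -0.15 to 0.013 when 1 mouse was left out. *Serpina6* was at -0.024 with no filter and at -0.072 to 0.19 when 1 mouse was left out. *Usp39* was at -0.18 (adjusted p = 0.241 by edgeR) with scaling to total counts, at -0.16 (0.168) with limma and at -0.45 to -0.35 when 1 mouse was left out. Over all genes, the lower calls numbered 702 with scaling to total counts, 637 with limma, 845 among genes with a mean FPKM of at least 5, where fewer genes are tested, and 949 to 1666 when 1 mouse was left out. The higher calls numbered 3509, 3031, 750 and 982 to 1847. The cause of these shifts was not tested. The difference in the share of counts held by the 10 genes ran from -0.344 to 0.016 percentage points when 1 mouse was left out, so that its sign turned. Leaving out each mouse for the 4 ratios was added after seeing the data. No paired analysis was possible because the labels give no replicate numbers shared between genotypes. Depth limits *Usp39* (184 to 253 counts per mouse) and *Serpina6* (448 to 899) more than *Alb* (164528 to 222317).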
